A study of Arabidopsis thaliana with 58 samples.

Results

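PICKLE (PKL) was mapped by ChIP-seq in seedlings of hy5 and of pifQ, lines that lack transcription factors acting on opposite sides of the light response. The comparison rests on 6 peak lists, the anti-PKL libraries of hy5 (3) and of pifQ (3), out of 58 samples in the series. All 6 came from whole seedlings 9 days old, kept in constant white light, and were precipitated with an antibody against endogenous PKL. The hy5 line carries a mutation in HY5, and the pifQ line lacks PIF1, PIF3, PIF4 and PIF5. The alleles, the control library behind the peak folds and the ChIP protocol are not given in the sources used here. PKL lists of jaw-5D (3), a line in which a microRNA lowers TCP transcripts, and of WT (3) from the same series were used as values beside, not in the tests. The jaw-5D lists share the format of the hy5 and pifQ lists, whereas the WT lists stop at a stricter significance and held 632 to 2824 peaks, so an empty WT entry was not read as a difference. The replicates are described as biological, and p-values measure the spread between these libraries.

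PKL is a CHD3-type ATP-dependent chromatin remodeler, an enzyme that moves nucleosomes, and is known in seedlings for keeping embryo genes off after germination and for promoting hypocotyl elongation. HY5 is a bZIP transcription factor that accumulates in light and promotes photomorphogenesis, the development of a short, green seedling. The PIFs are bHLH factors that bind phytochromes, promote elongation and are removed in light. HY5 and PIFs bind related G-box elements and share many target genes.

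PKL peaks differed between the lines most clearly at HY5 itself, the gene mutated in hy5. Each peak carries the authors' fold enrichment at its summit over the local background, called summit fold here. For each gene, the highest summit fold was taken among peaks with a summit in the gene or within 1000 bp upstream. HY5 (AT5G11260, chr5:3593380-3594992 in TAIR10, minus strand) had a summit fold of 6.13, 5.43 and 6.01 in hy5, against 2.56, 2.02 and 2.26 in pifQ. All 3 hy5 libraries lay above all 3 pifQ libraries. The jaw-5D libraries, at 3.09, 2.43 and 2.38, lay close to pifQ. No WT library had a peak there.

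The mean summit fold at HY5 was 5.86 ± 0.371 in hy5 and 2.28 ± 0.270 in pifQ (SD, n = 3 each). Relative to the median shift between the lines, the log2 difference was 1.42 (SE 0.16), with an adjusted p of 6.42e-05 (limma, Benjamini-Hochberg). It was the single call among 4751 genes with a summit in all 6 libraries, 0.021% of them, and 0% were called lower. At an unadjusted p under 0.05 there were 399 genes in both directions. The largest difference at any other gene was 0.82 in size on the log2 scale, and the next smallest adjusted p was 0.229. The middle 90% of genes lay between -0.35 and 0.33.

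The HY5 peak straddled the gene start in hy5, with its summit 139, 172 and 123 bp upstream. In pifQ the summits stood 190, 212 and 269 bp upstream, and all 3 peaks ended before the gene start. Peak length at HY5 was 738, 546 and 551 bp in hy5, against 321, 276 and 322 bp in pifQ. The groups did not overlap, but peak length at HY5 did not pass the test over all genes (log2 difference 0.91, SE 0.17, adjusted p = 0.103, limma). With peaks restricted to a -log10 q (the authors' significance of a peak) above or at 10, no pifQ peak at HY5 was left. The pifQ libraries then had no spread, so no p is given for that setting. Peak length at HY5 passed with the jaw-5D libraries in the same fit (adjusted p = 0.0465). Over the other alternatives for peak length at HY5, the adjusted p ran from 0.0248 to 0.679.

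**Figure D1:**
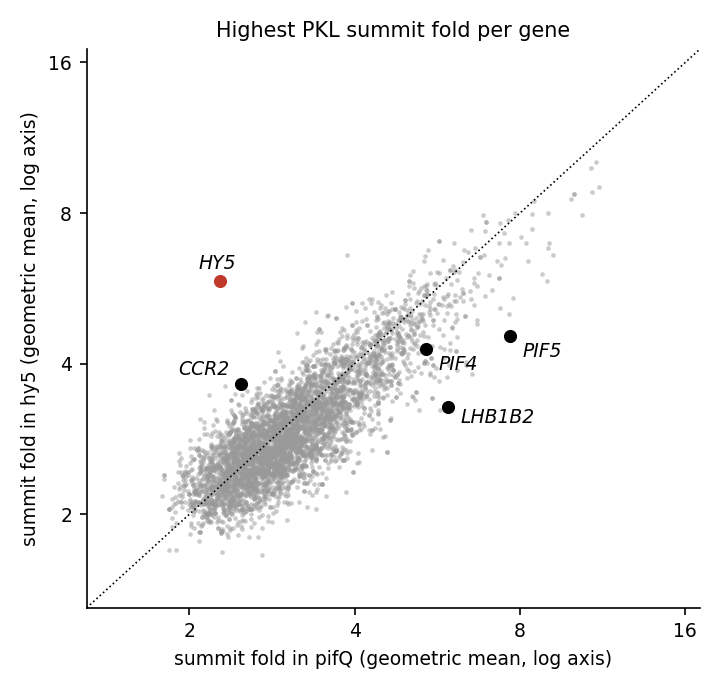
Highest PKL summit fold per gene in hy5 (vertical log axis) against pifQ (horizontal log axis), as geometric means of 3 libraries each, for 4751 genes with a summit in all 6 libraries; the dotted line marks equal values. HY5 (red) is the gene called by limma, at 5.85 in hy5 and 2.27 in pifQ, and the other named genes (black) did not pass the test.

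At PIF3, one of the genes mutated in pifQ, hy5 again stood higher, here as the line without the mutation in the gene. PIF3 (AT1G09530, chr1:3076582-3079539, plus strand), a phytochrome-interacting bHLH factor, had 711, 669 and 607 bp under PKL peaks in hy5 and 0 bp in all 3 pifQ libraries. The jaw-5D libraries had 539, 272 and 300 bp. Bp were tested with limma on log2 of bp plus 100, over 10242 genes with at least 50 bp under peaks in at least 3 of the 6 libraries. PIF3 was 1 of 41 genes called with more bp in hy5, 0.4% of those tested, and 2.09% were called in either direction. It met this filter through hy5 alone and had no spread in pifQ. Genes at 0 bp throughout a line are therefore described by their bp, without a p.

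The peaks before and at the start of PIF3 in hy5 were absent from pifQ. The upstream one had its summit 969, 954 and 997 bp before the gene start in hy5, with a fold of 3.02, 2.82 and 3.59. The one at the gene start had its summit 103, 86 and 100 bp into the gene, with a fold of 3.31, 2.69 and 2.12. A further peak about 4 kb upstream was present in all 6 libraries, with a fold of 6.22, 5.59 and 6.22 in hy5 and 4.71, 5.13 and 5.29 in pifQ. Peaks were thus missing in pifQ at the gene and not at the site further upstream. Of the jaw-5D libraries, all had the peak before the gene, and replicate 1 alone had the one at the gene start, with a fold of 1.78.

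PIF1, listed by RefSeq as PIL5 (AT2G20180, chr2:8704024-8706900, minus strand), represses seed germination in the dark. It had 474, 310 and 0 bp under peaks in hy5, against 1181, 1298 and 1376 bp in pifQ. The groups did not overlap, and the difference did not pass the test (log2 -2.16, SE 0.69, adjusted p = 0.472). Without hy5 replicate 3, the one at 0 bp, the log2 difference was -1.37 (adjusted p = 0.0579). The jaw-5D libraries held 350, 374 and 375 bp, with 1 peak each at the gene start. In pifQ the peaks reached into the gene and ended at nearly the same base in the 3 libraries, 1188, 1187 and 1185 bp past the gene start. In hy5 replicates 1 and 2 the peak ended 246 and 180 bp past it.

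The other pair of genes missing in pifQ kept their PKL peaks in both lines. PIF4 (AT2G43010), a promoter of elongation in warmth and shade, had 1121, 1251 and 1206 bp in hy5, against 1066, 1056 and 1107 bp in pifQ. Its summit fold was 4.33, 3.66 and 4.96 in hy5 and 5.48, 4.78 and 6.02 in pifQ. These folds overlapped and did not pass (adjusted p = 0.681). PIF5, listed as PIL6 (AT3G59060), is a close relative of PIF4 and had 1935, 2282 and 2295 bp in hy5, against 1943, 2221 and 2247 bp in pifQ. Its summit fold was 3.68, 5.09 and 4.99 in hy5, against 6.50, 8.59 and 8.09 in pifQ. All 3 hy5 folds lay below all 3 pifQ folds, and the difference did not pass over all genes (log2 -0.70, SE 0.18, adjusted p = 0.301). The jaw-5D folds at PIF5 were 6.03, 5.83 and 4.98, below all pifQ libraries and overlapping hy5.

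HYH, the closest homolog of HY5, had 252, 410 and 0 bp in hy5 and 1248, 504 and 797 bp in pifQ. The groups did not overlap, but replicate 3 of hy5 alone was at 0 and the difference did not pass (adjusted p = 0.581). PKL itself had no peak in any of the 12 PKL libraries. HY5 is mutated in hy5, and PIF1, PIF3, PIF4 and PIF5 in pifQ. A difference in PKL binding and a change in the DNA of the mutated locus therefore cannot be told apart at these genes.

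The PKL lists of hy5 were shorter and covered less of the genome than those of pifQ, without overlap. The lists held 11542, 11379 and 12181 peaks in hy5, against 12792, 12443 and 13979 in pifQ. Every hy5 list was shorter than every pifQ list. The mean was 11701 ± 424 peaks in hy5 and 13071 ± 805 in pifQ (SD, n = 3 each; exact two-sided permutation test, p = 0.1, the smallest that the design allows). Peaks covered 6.40 ± 0.428 Mb in hy5 and 7.20 ± 0.342 Mb in pifQ (exact permutation p = 0.1). Genes with a peak numbered 9225, 9022 and 9809 in hy5, against 10355, 9942 and 10795 in pifQ.

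Individual peaks were of similar size in the lines. Median peak width was 428 ± 16.1 bp in hy5 and 417 ± 6.03 bp in pifQ (exact permutation p = 0.4, n = 3 each). Median summit fold was 2.57 ± 0.00751 in hy5 and 2.58 ± 0.0387 in pifQ (exact permutation p = 0.8, n = 3 each). The single highest fold of a list was 12.1, 11.7 and 14.4 in hy5, against 16.8, 16.4 and 17.4 in pifQ, without overlap. The jaw-5D lists, with 13136, 12437 and 12619 peaks, all lay above the hy5 lists and overlapped pifQ. Read totals are not in the lists, so the part of sequencing depth in the number of peaks was not tested.

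**Figure D2:**
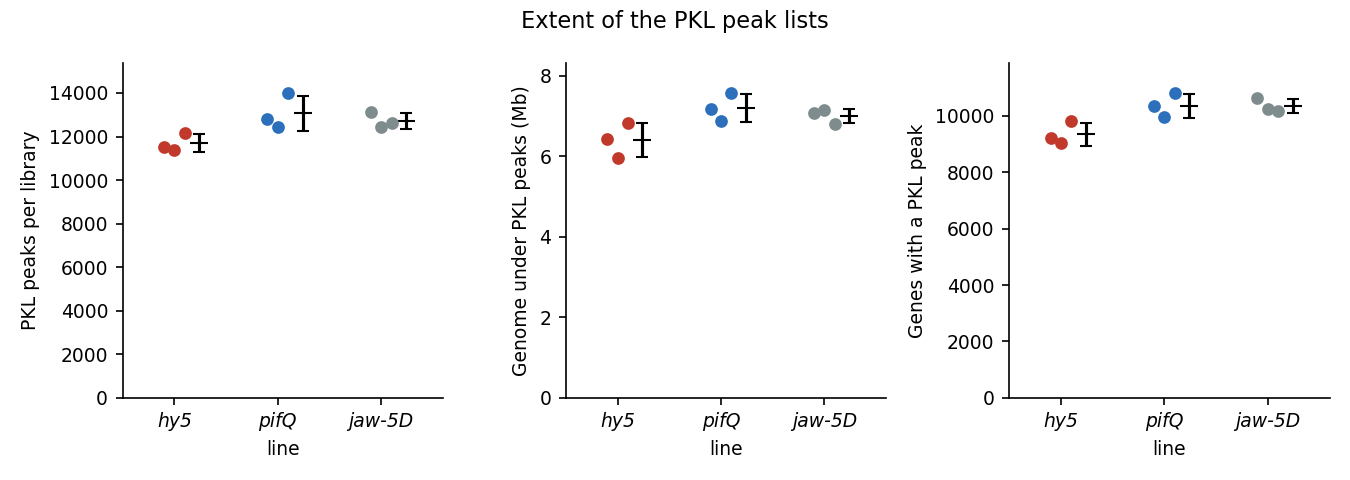
PKL peaks per library, genome under them in Mb and genes with a peak (gene with 1000 bp upstream, at least 50 bp) in hy5, pifQ and jaw-5D; points are libraries and bars the mean with SD (n = 3). The 3 hy5 lists, at 11379 to 12181 peaks, lie below the 3 pifQ lists, at 12443 to 13979.

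Most PKL peaks of a library were shared with any other library, but most regions were not shared by all 6. The peaks of the 6 lists merged into 18147 regions, of which 6546, or 36.1%, had a peak in all 6 libraries. A library shared 68.4% to 85.8% of its regions with a library of the other line. Within hy5 the share was 74.8% to 82.1%, and within pifQ 74.6% to 84.1%, ranges that overlap the one between lines. Only 69 regions had a peak in all 3 hy5 and 0 pifQ libraries, and 282 had the reverse. Leaving out any one library, a looser rule that favours higher counts, gave 121 to 218 and 445 to 593.

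Regions that separated the lines were close in width to regions in general and narrower than those shared by all 6 lists. Their median width was 444 bp in the hy5 regions and 436 bp in the pifQ regions, against 491 bp over all regions and 834.5 bp in shared regions. Shared regions had to be found in 6 lists and are merged from them, which favours long and strong ones. Regions that separated the lines were in turn chosen by having no peak in the other line. Median summit fold was 2.26 in hy5 at the hy5 regions and 2.34 in pifQ at the pifQ regions. Over all regions it was 2.47 in hy5 and 2.46 in pifQ, and at shared regions 2.96 in hy5 and 3.07 in pifQ. The jaw-5D libraries all had a peak at 17.4% of the hy5 regions, 23.4% of the pifQ regions, 45.7% of all regions and 90.1% of shared regions. Summits fell within 1000 bp upstream of a gene start at 47.8% of the hy5 regions and 41.8% of the pifQ regions, close to the 44.7% over all regions. They lay within a gene at 20.3% of the 69 hy5 regions, against 33.0% of the pifQ regions and 32.2% of all regions.

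Across genes, more had fewer bp under PKL peaks in hy5 than more bp. Beside the 41 genes with more bp, 173 had fewer, 1.69% of the 10242 tested, and 883 genes had an unadjusted p under 0.05. In 38 of the 41, every pifQ library was at 0 bp, and in 155 of the 173, every hy5 library was. These genes met the filter through 1 line alone, so their counts describe where peaks were listed and are no support for a difference. The other 3 and 18 genes had bp in both lines. The genes called lay over 31 and 122 regions with a peak in 3 libraries of 1 line and none of the other, since neighbouring genes share peaks. When each list was cut to the same number of peaks, the split was 76 with more and 113 with fewer bp, of which 28 and 104 were among the original calls.

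With no filter, over 14794 genes, 35 and 148 were called, all among the 41 and 173. Genes with peaks in both lines were among those that lost their call, as given below. Leaving out 1 library changes which genes the filter admits: 2 of the 41 could be tested without any one hy5 replicate, and 10 of the 173 without any one pifQ replicate. Where they could be tested, genes with more bp numbered 40, 0 and 0 without pifQ replicate 1, 2 or 3, and genes with fewer bp 193, 218 and 252 without hy5 replicate 1, 2 or 3. Original calls made up only 15 of the 40, and 112, 118 and 124 of the 193, 218 and 252 in turn. With no filter and 1 library left out, so that every original call could be tested, 0 and 0 genes with more and fewer bp were called without hy5 replicate 1 (818 at an unadjusted p under 0.05, limma). Leaving out any other library then gave 57 to 108 with more and 181 to 299 with fewer bp, of which 30 to 35 and 85 to 135 were original calls.

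Among called genes with a symbol, AHL19, an AT-hook DNA-binding protein, had the largest excess of bp in hy5. It had 531, 963 and 643 bp in hy5, against 0 bp in all pifQ libraries and in all jaw-5D libraries. NIMIN1, whose protein binds the salicylic acid receptor NPR1, had 555, 450 and 456 bp in hy5 and 0 bp in pifQ. LPAT2, an acyltransferase of phospholipid synthesis, had 521, 472 and 462 bp in hy5 and 0 bp in pifQ. Unlike AHL19, both NIMIN1 and LPAT2 had a peak in every jaw-5D library, of 226 to 295 bp and 302 to 536 bp.

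The remaining genes named with more bp were QSOX1, a sulfhydryl oxidase, UNE2, SAL2, AtS40-3, ILL3 of the auxin-conjugate hydrolase family and TBL16 of a family that acetylates cell-wall polymers. Their bp in hy5 ran from 215 at ILL3 and UNE2 to 905 at UNE2, and all were at 0 bp in pifQ but for 18 bp in 1 library at QSOX1. Counted without a test, 45 genes had a peak in all 3 hy5 and 0 pifQ libraries, 0.312% of the 14411 genes with a peak in at least 1 library, and 202 had the reverse, 1.4%. Asked of 1 library fewer, leaving out each in turn, these counts were 81 to 143 and 337 to 419.

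Of genes with peaks in all pifQ libraries and none in hy5, the 5 with a symbol and the most bp were MPS1, MOD1, PAP26, KRP2 and JAL34. MPS1, a gene of meiotic spindle organisation, had 0 bp in all 3 hy5 libraries, against 633, 541 and 919 bp in pifQ. MOD1, an enoyl reductase of fatty acid synthesis, had 0 bp in hy5 and 936, 502 and 645 bp in pifQ. PAP26, an acid phosphatase, had 0 bp in hy5 and 638, 327 and 909 bp in pifQ. KRP2, an inhibitor of cyclin-dependent kinases, had 0 bp in hy5 and 492, 277 and 904 bp in pifQ. The lectin gene JAL34 had 0 bp in hy5 and 853, 404 and 403 bp in pifQ. All 5 also had a peak in at least 2 jaw-5D libraries.

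In 9 called genes both lines had a peak in every library, and the lines differed in the bp that peaks covered, through the number of peaks, their length or both. Their adjusted p came from an adjustment that also held the called genes at 0 bp throughout a line. Small p at such genes lower the adjusted p of the others. Whether these 9 would pass in an adjustment without them was not tested. BBX25, listed as STH (AT2G31380), is a B-box protein that binds HY5 and lowers its activity. It had 642, 502 and 516 bp under peaks in hy5, against 1789, 1713 and 1650 bp in pifQ. The difference passed (log2 -1.37, SE 0.16, adjusted p = 0.0148), and the jaw-5D libraries, at 822, 750 and 571 bp, lay nearer to hy5. Its summit fold did not pass, at 3.11, 2.97 and 3.06 in hy5 and 3.29, 3.5 and 3.43 in pifQ (adjusted p = 0.89). The call for bp was lost without hy5 replicate 2 (adjusted p = 0.0521) or without any one pifQ replicate (0.121 to 0.198).

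TT7 (AT5G07990), the flavonoid 3'-hydroxylase of anthocyanin synthesis, had 288, 228 and 227 bp in hy5, against 1286, 1257 and 1050 bp in pifQ (log2 -1.79, SE 0.18, adjusted p = 0.00747). Each hy5 library had 1 peak in the window, at the promoter in replicates 1 and 3 and within the gene in replicate 2. Each pifQ library had 3, at the promoter and within the gene. SOUL-1, a haem-binding protein, had 275, 280 and 116 bp in hy5 and 1355, 1387 and 1176 bp in pifQ (adjusted p = 0.0309). GAPA-2, a subunit of chloroplast glyceraldehyde-3-phosphate dehydrogenase, had 436, 497 and 619 bp in hy5 and 1427, 1519 and 1733 bp in pifQ (adjusted p = 0.0242). AOC2, an allene oxide cyclase of jasmonate synthesis, had 303, 356 and 335 bp in hy5 and 965, 953 and 1180 bp in pifQ (adjusted p = 0.0205). The groups stood apart at each of these genes, while jaw-5D lay with pifQ at SOUL-1, near hy5 at AOC2 and at 970, 0 and 11 bp at GAPA-2. Without any one pifQ replicate these 4 calls were lost, with adjusted p of 0.0596 to 0.114 at TT7 and 0.157 to 0.359 at the others. Of the hy5 replicates, leaving out 1 or 2 also ended the calls at SOUL-1 (0.0699 and 0.0533) and GAPA-2 (0.0654 and 0.0717), and leaving out 1 or 3 that at AOC2 (0.0679 and 0.0568).

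The transporter gene ABCA1 was the single one of the 9 with more bp in hy5. It had 578, 527 and 566 bp in hy5 and 237, 225 and 252 bp in pifQ (log2 1.07, SE 0.14, adjusted p = 0.0216). The call was lost without hy5 replicate 1 (0.0679) or 2 (0.0569) or any one pifQ replicate (0.170 to 0.266). The others were AT3G16370, AT3G19540 and AT2G16668, each with fewer bp in hy5 and each losing its call without any one pifQ replicate or without hy5 replicate 1 or 2 (0.0527 to 0.445). AT3G19540 and AT2G16668 also lost it without hy5 replicate 3 (0.0848 and 0.0931). With no filter, SOUL-1, GAPA-2, AOC2, ABCA1, AT3G19540 and AT2G16668 lost their calls (adjusted p of 0.0518 to 0.143, limma). BBX25, TT7 and AT3G16370 kept theirs (0.0380, 0.0185 and 0.0486).

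**Figure D3:**
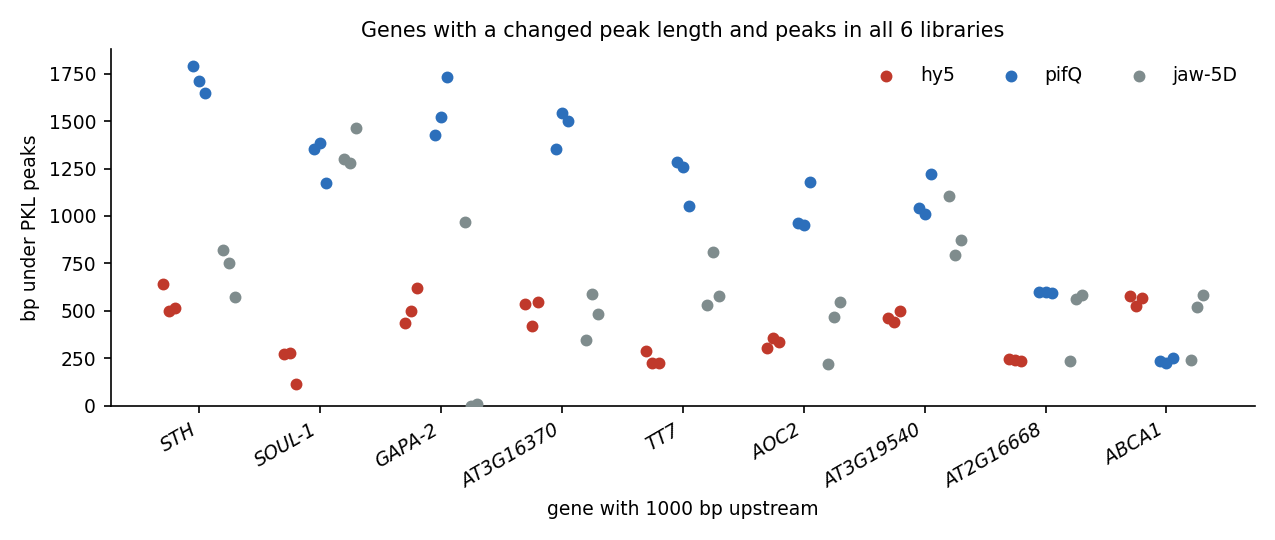
Bp under PKL peaks in hy5, pifQ and jaw-5D (left to right at each gene; points are libraries) for the 9 genes called by limma that had a peak in all 6 libraries. The 3 hy5 values lie below the 3 pifQ values at 8 genes and above them at ABCA1.

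Called genes had somewhat fewer bp under peaks, in the line that had them, than genes tested in general. Most called genes had no bp in any library of the other line, whereas genes tested in general include those bound throughout. The sets thus differ by how they were chosen, for bp and for the jaw-5D peaks below. Whether called genes differ beyond that choice was not tested. The 41 genes with more bp had a median of 338 bp in hy5, and the 173 with fewer had 324 bp in pifQ. Over all genes tested the median was 377 bp in hy5 and 425 bp in pifQ, and over genes with a peak in all 6 libraries, chosen by being bound throughout, 560 bp in hy5 and 606 bp in pifQ. Of the 41, 11 had a peak in all 3 jaw-5D libraries and 9 in none, and of the 173, 51 and 34. Over all genes tested, 71.8% had a peak in all 3 jaw-5D libraries. H3K4me3, a mark of active promoters, was listed in all 3 WT libraries at 75.6% of the 41 genes, 63.6% of the 173 and 75.0% of all genes tested.

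Light-signalling genes were widely bound by PKL in both lines. In at least 1 of the 6 libraries, PKL peaks lay at all 22 light regulators, as well as at all 7 photoreceptor genes and 11 of 12 PIF-family genes, against 43.2% of all 33331 nuclear genes. Among these lists HY5 passed for summit fold and BBX25 for fewer bp in hy5, and PIF3 was at 0 bp throughout pifQ. The median log2 difference in bp was -0.20 over 20 light regulators tested, -0.06 over 7 photoreceptor genes and -0.03 over 11 PIF-family genes, beside -0.02 over all genes. COP1, the ubiquitin ligase subunit that targets HY5 for degradation, had 280, 536 and 251 bp in hy5 and 248, 319 and 477 bp in pifQ, which overlapped. PHYB, the main red-light receptor, had 966, 795 and 904 bp in hy5 and 771, 404 and 523 bp in pifQ without overlap, and did not pass (adjusted p = 0.494). Non-overlap of that kind held for 3.98% of genes tested with hy5 above, and for 12.9% with hy5 below.

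At shade and elongation genes, many of them PIF targets, no difference passed. Of 27 such genes, 23 had a PKL peak, 21 were tested for bp and 17 for fold, and 0 were called by limma (2 and 1 at an unadjusted p under 0.05). SAUR15, an auxin-induced growth gene, had one of the higher folds in the list, at 7.32, 7.06 and 8.71 in hy5 and 7.12, 6.91 and 6.81 in pifQ, which overlapped. ATHB2, a shade-induced homeobox gene listed as HB-2, had 729, 567 and 562 bp in hy5 and 1619, 1297 and 1147 bp in pifQ. These did not overlap, and the difference did not pass (log2 -0.90, SE 0.20, adjusted p = 0.193). YUC2, IAA29, XTH15 and PRE5 had no PKL peak in any of the 6 libraries.

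Of 17 flavonoid genes, several of them known HY5 targets, 14 had a PKL peak and 6 had one in all 6 libraries. TT7 was the single call among 9 tested for bp, beside 2.09% of all genes tested. The chalcone synthase gene CHS, listed as TT4, had 0 bp in all 3 hy5 libraries and 468, 623 and 0 bp in pifQ, too few libraries for a test. The flavanone 3-hydroxylase gene F3H had 375, 410 and 432 bp in hy5 and 403, 462 and 644 bp in pifQ, which overlapped.

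Photosynthesis genes were bound by PKL in both lines, and no difference among them passed gene by gene. Of 24 light-harvesting, Rubisco and related genes, all had a PKL peak, 23 of them in all 6 libraries, and 0 of the 23 tested were called for bp by limma (0 at an unadjusted p under 0.05). For summit fold, 13 had a summit in all 6 libraries and 0 were called (8 at an unadjusted p under 0.05, all with a negative log2 difference, beside 399 of all 4751 genes in both directions). Their median log2 difference was -0.42, beside 0.001 over all 4751 genes. In 6 of the 13 all hy5 folds lay below all pifQ folds, which held for 11.2% of all genes and with hy5 above for 4.04%. The 6 were CAB1, CAB2, LHB1B1, LHB1B2, LHCA1 and RBCS3B.

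CAB1, a chlorophyll a/b-binding protein of photosystem II, had a fold of 6.38, 5.53 and 4.51 in hy5, against 8.11, 6.50 and 8.86 in pifQ (log2 -0.46, SE 0.18, adjusted p = 0.49). LHB1B2, of the same family, had 3.19, 2.52 and 4.4 in hy5 and 8.10, 5.23 and 4.88 in pifQ (log2 -0.79, SE 0.21, adjusted p = 0.301). The members are not independent, since CAB1, CAB2 and CAB3 are neighbouring, near-identical genes, as are pairs in the LHB1B and LHCB2 families, and reads could be split between copies. Over all genes, the share with all hy5 libraries below all pifQ libraries differed with the level of fold. It was 7.38% at a mean fold below 2.5, 11.7% from 2.5 to below 3.5, 13.2% from 3.5 to below 5 and 15.8% at 5 or more. The median log2 difference was 0.02 at the lowest of these levels and -0.03 at the highest. Of the 13 photosynthesis genes, 7 lay from 2.5 to below 3.5, 5 from 3.5 to below 5 and 1 above. The part of the level of fold in the difference at these genes was not tested.

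**Figure D4:**
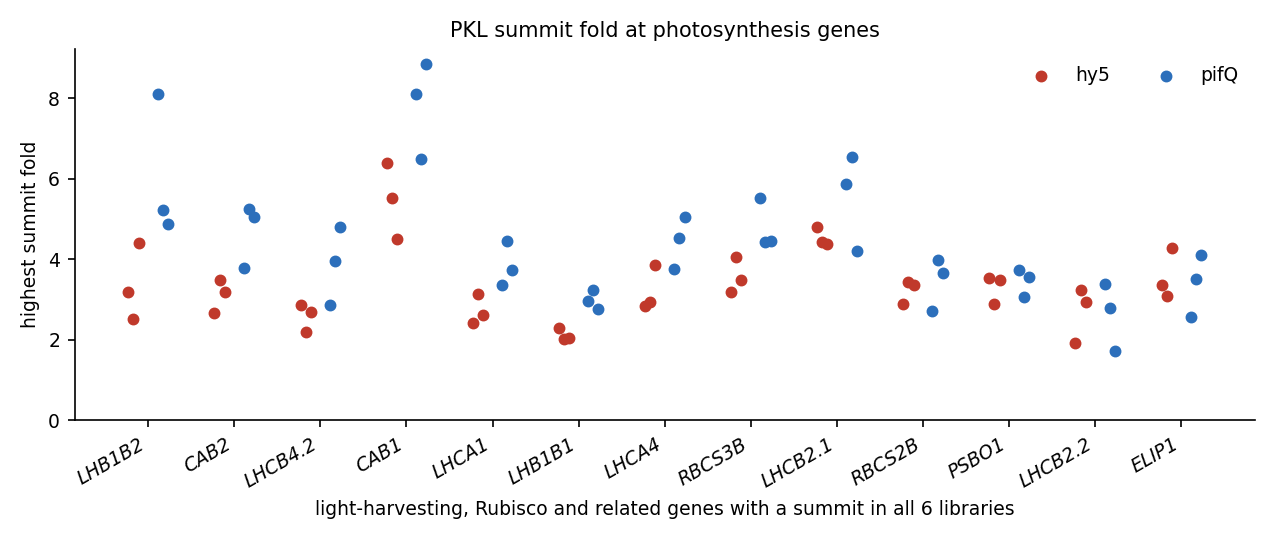
Highest PKL summit fold in each library of hy5 (left at each gene) and pifQ (right) for the 13 light-harvesting, Rubisco and related genes with a summit in all 6 libraries, ordered by the log2 difference. The hy5 points lie below the pifQ points without overlap at 6 genes, among them LHB1B2 and CAB1, and none passed the test over all genes.

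Chlorophyll, clock, hormone and corepressor genes showed no call. None of 9 chlorophyll synthesis genes, 21 clock genes, 15 auxin-response genes, 12 gibberellin genes or 5 TOPLESS corepressor genes tested passed for bp, nor any for summit fold (limma). At an unadjusted p under 0.05, 2 of the clock genes stood for bp, and for fold 1 clock, 1 auxin and 1 gibberellin gene. The clock gene PRR9 had a fold of 6.89, 6.09 and 8.31 in hy5 and 5.13, 5.34 and 6.76 in pifQ, which overlapped. TPL, the corepressor TOPLESS, had one of the higher folds of all members, at 9.24, 6.17 and 8.78 in hy5 and 10.7, 10.1 and 10.3 in pifQ. The 3 hy5 values lay below, and the difference did not pass (adjusted p = 0.641). Likewise 0 genes were called by limma among 5 CIN-class TCP genes, 6 cold genes, 7 defence WRKY genes and 4 nitrate genes tested for bp, with 1 TCP and 1 WRKY gene at an unadjusted p under 0.05.

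Embryo and root genes were largely free of PKL peaks in both lines. Of 7 embryo regulators, LEC1, LEC2, FUS3, ABI3, L1L and BBM had 0 bp in every library, and AGL15 had 307, 360 and 222 bp in hy5 and 338, 245 and 279 bp in pifQ. Of 10 root genes, 3 had a peak in any library and 1, SCR, in all 6. All 11 housekeeping genes had a peak, and 0 of 8 tested were called for bp by limma, with 1 at an unadjusted p under 0.05.

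Below the threshold, AT2G30766 had the smallest p for a higher summit fold in hy5, and AT5G02360 and AT5G02370, which share a peak, for a lower one (adjusted p of 0.229 each). Among genes with a symbol, those with the smallest p in each direction follow as values. Lower in hy5 were FBP, the cytosolic fructose-1,6-bisphosphatase, at 2.97, 3.58 and 3.18 in hy5 and 4.49, 7.16 and 5.84 in pifQ (adjusted p = 0.287), and WAKL6, a wall-associated kinase relative, at 1.99, 2.79 and 1.97 in hy5 and 4.12, 4.15 and 3.37 in pifQ (adjusted p = 0.287). TRM21 followed with 1.52, 1.58 and 1.91 in hy5 and 2.64, 2.52 and 3.01 in pifQ, and then PIF5. The light-harvesting gene LHCB2.3 had 2.44, 1.996 and 1.77 in hy5 and 2.97, 3.65 and 3.63 in pifQ. These 3 each had an adjusted p of 0.301, and the groups did not overlap at any of the 5 genes. Above in hy5 were CCR2, a cinnamoyl-CoA reductase, at 3.53, 3.39 and 4.05 in hy5 and 2.68, 2.27 and 2.51 in pifQ (adjusted p = 0.301). BBX8, a B-box gene, had 4.01, 4.85 and 3.87 in hy5 and 3.36, 2.95 and 2.46 in pifQ (adjusted p = 0.352). EDA39 and EXO followed, with an adjusted p of 0.362 and 0.391, and the 4 genes also stood without overlap. WAKL6 passed without hy5 replicate 2 (adjusted p = 0.0379), where 4 genes were called lower and 2 higher in hy5. Its adjusted p ran up to 0.558 over its alternatives.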

How the data were processed

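MACS2 2.2.5 and Bowtie2 2.3.3 are listed, per the submitters' processing notes, with TAIR10, deepTools, SAMtools 1.6, fastp and HISAT2 2.1.0, but with no role for any of them. The authors deposited 1 peak list per library, with a fold ratio at the summit, a -log10 q and the summit offset (bp from the peak start) for each peak. The ratios are the authors' values and the control library behind them is not given in the sources used here. The lowest -log10 q was 1.30 in hy5 lists and 2.03 in WT lists. The lists hold no read totals, so depth is unknown.

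Gene positions came from the authors' deposited count table (33610 genes, 33331 nuclear), and 6 columns of the deposited expression tables that match no sample were not used. RefSeq (TAIR10.1) matched 28932 identifiers for symbols. Bp under peaks were summed over each gene with 1000 bp upstream. limma 3.58.1 was run in R 4.3.3 on log2(bp + 100) and on log2 summit fold, each library centred on its median over genes with a peak in all 6 (6060 genes for bp). The test was two-sided, with Benjamini-Hochberg adjustment over all genes tested and a threshold of 0.05. Before centring, the median hy5 minus pifQ difference over those genes was -0.11 for bp and -0.06 for fold, and log2 values are relative to it. Bp measure length called as enriched, not signal, and 100 added bp understate changes at short peaks. Neither a log2 value nor a p is given where a line was at 0 bp throughout. The fits were tested on simulated data drawn with spread in both lines. Genes at 0 bp throughout a line are not covered by that test.

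Named genes were the 10 called genes in each direction with a symbol, no overlap between lines and the largest difference in mean bp, the 8 likewise for fold, the 5 longest in each direction for presence, called members of 18 lists (242 members), the mutated genes, HYH and PKL, and, where fewer than 5 passed, the 5 with the smallest p. ABCA1 and 3 unnamed loci were added after their values were seen. The other members given as examples of a list were also chosen after their values were seen. Members and lists were chosen with earlier results of these data known. Sequences and motifs were not analysed here. Alternatives changed the window, peak threshold, number of peaks, centring, added bp, filter and libraries.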

Additional observations from a re-analysis of the deposited data

How the results depend on the processing

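The call of higher summit fold at HY5 kept its direction and its side of the threshold in 12 of 13 alternatives, with log2 differences of 1.34 to 1.5 when any one library was left out. It missed the threshold on ranks within a library (0 genes called, adjusted p = 0.136 at HY5). HY5 was not among the genes tested with the gene body alone or with peaks restricted to a -log10 q above or at 10, and 0 genes passed there (88 and 126 at an unadjusted p under 0.05, limma). Taking peaks that overlap the window called 2 genes, HY5 and its neighbour OCP3, which share the peak. Leaving out 1 library called 1 to 2 genes higher and 0 to 4 lower in hy5.

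The counts for bp moved widely. Genes with more and fewer bp in hy5 numbered 17 and 83 with the gene body alone, 76 and 113 with equal numbers of peaks, 21 and 91 with 9 libraries in the fit and 5 and 7 with 500 bp added. The stricter peaks gave 30 and 177, but could test 0 of the 41 original calls and 7 of the 173, and shared 0 and 3 with them. Leaving out 1 library gave 0 to 40 and 0 to 252, where the filter left 2 of the 41 testable without any one hy5 replicate and 10 of the 173 without any one pifQ replicate. With no filter as well, chosen after seeing the data, it gave 0 to 108 and 0 to 299 (71, 68, 57 and 68 with more bp without hy5 replicate 3 and pifQ replicates 1, 2 and 3). With the replicate number as a block, 0 and 0 passed (740 at an unadjusted p under 0.05, limma), and the block changed no call for fold. Same-numbered libraries of the lines correlated at -0.012, -0.034 and 0.0038 in their deviations, and not every library correlated best with its own number, so the numbers do not pair them. Peaks present in all hy5 and 0 pifQ libraries were at 26 genes with the stricter peaks and 86 with equal numbers. Leaving out 1 library, which loosens the rule, gave 81 to 143 such genes and 337 to 419 of the reverse. For regions, an alternative chosen after seeing the data, it gave 121 to 218 and 445 to 593. The difference in peaks per library ran from -1685 to -917 and that in Mb from -1.01 to -0.58. AOC2 turned to a log2 of 0.29 in bp with the stricter peaks (adjusted p = 0.948), AT2G16668 to 0.19 in bp (adjusted p = 0.473) and EXO to -0.021 in fold (adjusted p = 0.993), both with the gene body alone. The cause was not tested. BBX25 kept its call in 10 of 23 alternatives and TT7 in 14 of 22.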
